A study of Mus musculus with 12 samples.

Results

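miR-155, miR-146a and miR-146b are microRNAs (miRNAs) of the immune response, and their values were followed here through 12 mouse small RNA libraries. The members were taken by name, ignoring case, species prefix, arm, star and copy number, and make up 3 of the 324 miRNA names in the lists (430 when arms and stars are kept apart). All 3 were listed in 11 libraries; in the DN3 control library miR-146a was missing. The libraries came from DN3 thymocytes, an early stage of T cell development in the thymus, from CD4+CD25+ regulatory T cells (Treg), from CD4+ T cells, which the series title calls activated, and from mouse embryonic fibroblasts (MEF). Each cell type was sampled as control, Drosha-deficient and Dicer-deficient, with 1 library per combination, and Drosha and Dicer are the RNase III enzymes that cut miRNA precursors in the nucleus and in the cytoplasm. All mice were on a backcrossed C57BL/6 background. DN3 cells were sorted from the thymus of Lck-cre mice, and Treg and CD4 cells from lymph nodes and spleen of mice with CD4-cre, with the Cre transgene also in the control mice. The labels name the deleted gene as Drosha or Dicer with no further allele. The fibroblasts came from E14.5 embryos that carry Rosa26-CreER, a Cre that needs an inducer, which the labels do not name, controls included; their age is nevertheless labelled 6 to 7 weeks, as for the sorted cells. The labels do not say whether animals were pooled or whether fibroblast lines were independent.

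miR-155 is cut from the non-coding transcript of its host gene Mir155hg, which is switched on by antigen receptor and inflammatory signals; in Treg cells miR-155 supports cell number through the cytokine signalling inhibitor SOCS1. miR-146a is induced by NF-kB and represses the adaptors TRAF6 and IRAK1, a feedback that limits inflammatory signalling, and it is known for its high level in Treg cells. miR-146b is made from a separate gene, has the same seed and is thought to reach many of the same targets. The seed (bases 2 to 8 from the 5′ end) is the part of a miRNA that chooses its targets.

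The mature sequences below (RefSeq, GRCm38.p6, 6 of 6 matched by name) show the seed in capitals, because it sets miR-155 apart from the pair of miR-146 genes. The 5p strand is the guide of each gene and the 3p strand its passenger (star).
miR-155-5p: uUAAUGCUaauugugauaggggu
miR-155-3p: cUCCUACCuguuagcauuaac
miR-146a-5p: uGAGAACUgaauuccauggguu
miR-146a-3p: cCUGUGAAauucaguucuucag
miR-146b-5p: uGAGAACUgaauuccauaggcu
miR-146b-3p: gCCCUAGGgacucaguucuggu
No other mouse mature miRNA in the RefSeq table has the seed of miR-155-5p, and the seed of miR-146a-5p is shared with 1 other, miR-146b-5p. The 2 miR-146 guides are both 22 nt long, share their first 17 bases and differ by G18A and U21C (miR-146a base first, positions from 1 at the 5′ end), shown here in capitals.
miR-146a-5p: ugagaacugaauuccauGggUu
miR-146b-5p: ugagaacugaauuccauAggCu
A sequence that stops before base 18 therefore cannot be assigned to 1 of the 2 genes.

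The 3 genes lie on separate chromosomes (GRCm38, GENCODE M21). The 65-nt hairpin of miR-155 is at chromosome 16, 84714140 to 84714204, plus strand, in exon 2 of the long non-coding RNA Mir155hg (84703167 to 84715245). The 65-nt hairpin of miR-146a, gene Mir146, is at chromosome 11, 43374397 to 43374461, minus strand, and overlaps no other annotated gene; the nearest, Gm12148, lies 11021 bp away. The 109-nt hairpin of miR-146b is at chromosome 19, 46342762 to 46342870, plus strand, within an intron of the protein-coding gene Mfsd13a on the same strand.

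The values are the authors' normalised mapping counts, scaled to similar totals per library; these ran from 893850 to 1027032. DN3 and Treg files list single sequences and no value below 10, while CD4 and MEF files list whole miRNAs, so a level set across these 2 formats is a description. A missing miRNA is one with no entry that reached the file's lowest value, not one at 0. In DN3 and Treg files this limit holds for each sequence, so the unlisted sequences of a missing miRNA could sum to more. Low values in the CD4 and MEF files fell on multiples of a fixed step (all of them in the CD4 files and MEF control, 98.4% in MEF Drosha and 80.3% in MEF Dicer, within 0.6), which imply about 100000 reads in CD4 control, 7600 in CD4 Drosha, 6100 to 6200 in CD4 Dicer, and 274800, 77300 and 269700 in MEF control, Drosha and Dicer; the depth of DN3 and Treg is unknown. For CD4 control a step of 10 may be no more than rounded values, and the implied reads of MEF Dicer are rough estimates. Intervals from these reads are 95% exact (Clopper-Pearson) and cover counting error only. T cell miRNAs (miR-142-3p, miR-142-5p, miR-150, miR-181a) were all listed in the 9 libraries of T cell origin, with sums of 36842 to 176134, and 2 or 3 of 4 were listed in MEF (6344 to 8022). Most of the MEF sums was miR-181a, at 7844, 6253 and 6303 in control, Drosha and Dicer. Fibroblast miRNAs, 7 in the list, were all listed in each MEF library (9909 to 19485) and summed to at most 80 elsewhere. Markers that define Treg cells, such as Foxp3 mRNA, are not measured by these files.

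miR-155 was abundant in all T cell libraries and low in fibroblasts. Its values in control, Drosha and Dicer were 5150, 6781 and 7208 in Treg, 4032, 2883 and 2287 in DN3, and 4260, 1711 and 9836 in CD4. In MEF they were 33, 78 and 59. The 9 T cell libraries all lay above the 3 fibroblast libraries, and Treg lay above DN3 in every genotype without overlap. How many of all miRNAs separate the libraries in such ways was not counted, here or for miR-146a and miR-146b below. Among controls Treg stood 1.28-fold above DN3, 1.21-fold above CD4 and 156-fold above MEF; DN3 and CD4 controls differed by 1.06-fold. The CD4 control value has a counting interval of 3866 to 4683, and the 3 T cell controls have no replicate that could separate them. miR-155 took 0.514% of the listed values in Treg control and stood at rank 26 of 197.

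miR-146a showed the widest range of the 3. It stood at 13966, 25115 and 24622 in Treg control, Drosha and Dicer, and at 14220, 5658 and 23115 in CD4. In DN3 no miR-146a sequence reached 10 in control, and the Drosha and Dicer values were 33 and 63. MEF values were 175, 1395 and 126. Treg and CD4 overlapped and lay above all MEF libraries, which lay above both DN3 values. The Treg and CD4 controls were nearly equal (ratio 0.982, with the Treg value inside the CD4 counting interval of 13495 to 14973). That interval assumes the implied 100000 reads of CD4 control, and the Treg value has another format and an unknown depth. miR-146a was 1.39% of the listed values in Treg control, at rank 13 of 197, and was among the 10 highest ranks in Treg Drosha (10) and Treg Dicer (9).

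miR-146b had its lowest control value in Treg cells. Treg control, Drosha and Dicer held 36, 97 and 124, against 534, 1003 and 592 in DN3 and 3540, 789 and 820 in CD4. MEF values were 91, 116 and 48. Every DN3 and CD4 library was above every Treg and MEF library, and Treg and MEF overlapped. CD4 control was 98.3-fold and DN3 control 14.8-fold above Treg control. The CD4 Drosha and Dicer values rest on about 6 and 5 reads and have counting intervals of 290 to 1718 and 266 to 1912.

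**Figure D1:**
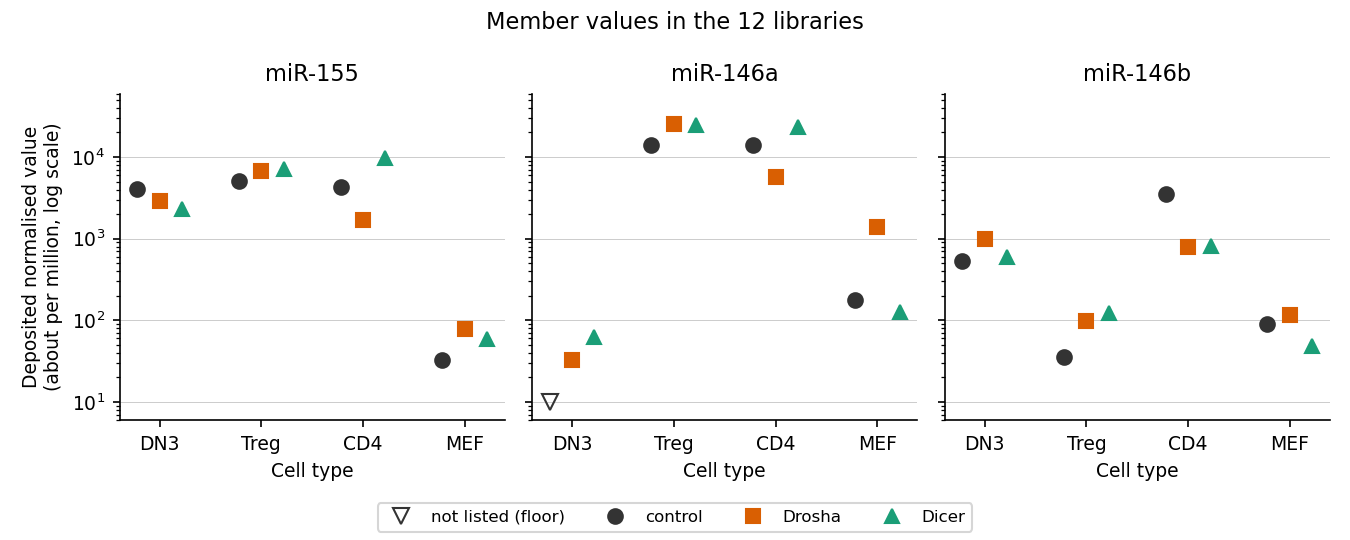
Deposited normalised value (log axis) of each member in the 12 libraries, by cell type on the horizontal axis, with circles for control, squares for Drosha and triangles for Dicer. The open triangle marks the floor of 10 for a single sequence in the DN3 control library, which does not list miR-146a. miR-155 separates the T cell libraries (1711 to 9836) from MEF (33 to 78), and miR-146a and miR-146b take opposite orders in DN3 and Treg.

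The comparison of Treg with DN3 asks how the members differ between mature regulatory T cells and their early thymic precursors, and it is the only pair of cell types tested here; these 6 files share a format. limma was fitted on log2(value + 1) with genotype as a block, so its replicates are genotypes and not animals. Of 180 miRNAs fitted, 38.9% passed an adjusted p of 0.05 in either direction, 12.2% higher and 26.7% lower in Treg, and the median miRNA was at -0.63. miR-146a was higher in Treg by 9.06 ± 0.49 log2 units (SE, 2 genotypes, limma adjusted p = 0.0011), the largest difference of all 180. It was higher in 2 of 2 genotypes, by 761-fold in Drosha and 391-fold in Dicer; in control it could not enter the fit. miR-146b was lower in Treg by -3.15 ± 0.43 (SE, 3 genotypes, limma adjusted p = 0.0043), lower in 3 of 3 genotypes and at place 6 from the bottom. miR-155 was at 1.08 ± 0.40 (SE, 3 genotypes), higher in 3 of 3 genotypes, and did not pass (limma adjusted p = 0.075). When libraries were scaled by median of ratios, which puts the median miRNA at 0.02, miR-155 passed at 1.70 (limma adjusted p = 0.021), miR-146a was at 9.55 and miR-146b at -2.54, and the 57 calls split into 28 higher and 29 lower in place of 22 and 48. Without the Dicer genotype 20 miRNAs passed in place of 70, and with floors for missing values 0 passed, miR-146a at 9.92 and miR-146b at -3.60 (limma adjusted p = 0.10 for each); with floors and without control miR-146b was at -2.80 (limma adjusted p = 0.057). These p-values measure the spread between genotypes, and fewer cells of a type and less RNA per cell cannot be told apart in bulk libraries.

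Markers of other cells also differed between these libraries. The myeloid miR-223 stood at 24, 588 and 746 in Treg control, Drosha and Dicer and at 28, 15 and 121 in DN3. The endothelial miR-126-3p was 34 to 181 in Treg and 239 to 383 in DN3, and the erythroid miR-451, miR-144 and miR-486 summed to 991 to 8533 in Treg (miR-486 not listed in Dicer) and 4473 to 8806 in DN3. Their part in the members' differences was not tested.

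**Figure D2:**
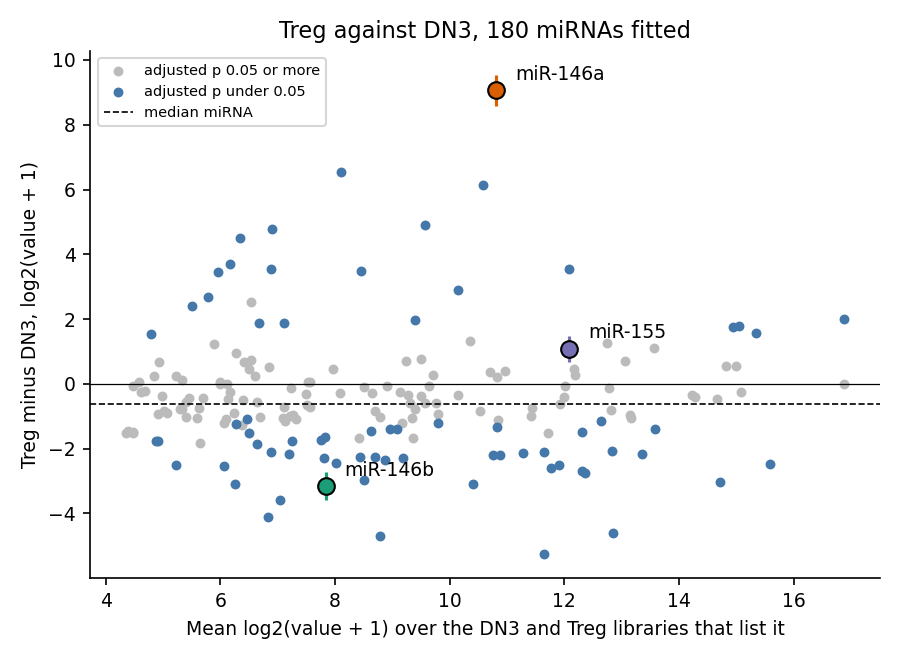
Difference of Treg and DN3 (vertical axis, log2 of value + 1) against the mean level over the DN3 and Treg libraries that list the miRNA (horizontal axis), 1 point per miRNA for the 180 fitted; blue points passed an adjusted p of 0.05, the dashed line is the median miRNA and bars on the members are SE. miR-146a is the highest point at 9.06, miR-146b lies at -3.15 and miR-155 at 1.08.

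The pair of miR-146 genes changed places between cell types. miR-146a made up 99.7%, 99.6% and 99.5% of the summed value of both in Treg control, Drosha and Dicer, that is 388, 259 and 199 times miR-146b. In DN3 it made up 3.18% in Drosha and 9.62% in Dicer, where miR-146b was 30.4 and 9.40 times miR-146a. CD4 cells held 80.1%, 87.8% and 96.6% miR-146a in control, Drosha and Dicer, and MEF 65.8%, 92.3% and 72.4%. The Treg libraries lay above all the others, and the 2 measured DN3 libraries below all the others. The pair together, which carries 1 common seed, took 1.40% of the listed values in Treg control, 1.77% in CD4 control and 0.0266% in MEF control. A ratio within 1 library does not depend on how that library was scaled.

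**Figure D3:**
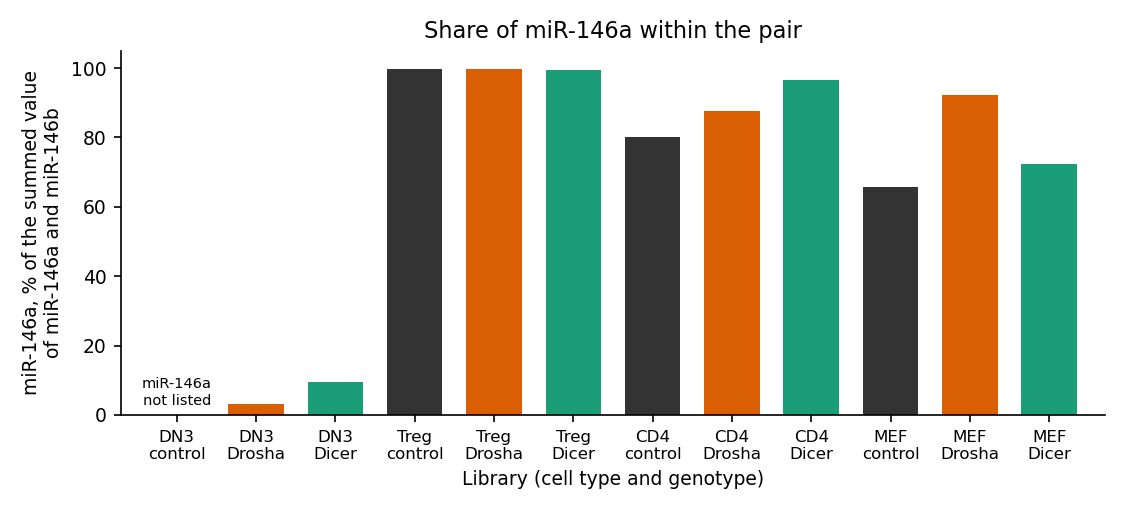
miR-146a as a percentage of the summed value of miR-146a and miR-146b (bars from 0) in each library, by cell type and genotype; DN3 control has no bar because miR-146a is not listed there. The Treg bars are at 99.5% to 99.7% and the DN3 bars at 3.18% and 9.62%.

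Passenger strands were seen for miR-146b alone. miR-146b* was 10 in DN3 control, 160 in CD4 control (4.52% of its guide, about 16 reads) and 11 in MEF control (12.1% of its guide, about 3 reads). It was not listed in Treg control or in any Drosha or Dicer library, but the floors were 526 and 645 in the CD4 deletion libraries and 10 to 13 in the others, above or close to most of these values. Stars of miR-155 and miR-146a were not listed in any of the 12 libraries.

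The DN3 and Treg files resolve each member into its sequences, 13 distinct ones for miR-155, 13 for miR-146a and 4 for the miR-146b guide. The 5′ end, which places the seed, was the RefSeq end for 99.0% to 100% of the miR-155 guide value, 98.9% to 100% of that of miR-146a and 100% of that of miR-146b. The shifted sequences were all from Treg libraries, where miR-155 and miR-146a had higher values than in DN3. Sequences below 10 are not listed, and the miR-155 ones that begin 1 base later were at 11 to 18 each, so shifted forms in DN3 could be missed. The most abundant shifted sequence of miR-146a (117, 129 and 186 in control, Drosha and Dicer) and a miR-155 form are shown with bases 2 to 8 in capitals, because the shift moves the seed.
miR-155, RefSeq 5′ end: tTAATGCTaattgtgataggggt
miR-155, 1 base later: tAATGCTAattgtgataggggt
miR-146a, RefSeq 5′ end: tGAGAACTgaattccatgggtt
miR-146a, 1 base earlier: cTGAGAACtgaattccatgggt
Sequences of miR-146a that begin 1 base earlier summed to 158, 206 and 276 in Treg control, Drosha and Dicer, or 1.13%, 0.820% and 1.12% of its guide. Sequences of miR-155 that begin 1 base later summed to 27, 56 and 35, or 0.524%, 0.826% and 0.486%. The other shifted sequences were a miR-146a form that begins 1 base later, at 10 in Treg Drosha, and a 15-nt fragment of miR-155, at most 15. Sequences of 15 to 17 nt that occur in both miR-146 hairpins were counted under miR-146a by the authors and summed to 24 in Treg Drosha and 37 in Treg Dicer, at most 0.150% of miR-146a. Set against the miR-146b values of the same libraries, 97 and 124, these amounts are not small. The files hold sequences from 15 nt although the labels give a size selection of 19 to 30 nt.

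The 3′ ends were more varied and told the members apart. The forms below have bases beyond the RefSeq 3′ end in capitals.
miR-146b, 22 nt: tgagaactgaattccataggct
miR-146b, 24 nt: tgagaactgaattccataggctGT
miR-146a, 22 nt: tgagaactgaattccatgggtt
miR-146a, 24 nt: tgagaactgaattccatgggttAT
miR-155, 24 nt: ttaatgctaattgtgataggggtT
miR-155, 26 nt: ttaatgctaattgtgataggggtTTT
The 24-nt form of miR-146b, 2 bases longer than RefSeq, was its most abundant sequence in DN3 control (241 of 534) and DN3 Drosha (605 of 1003), and the 22-nt form in DN3 Dicer (295 of 592). Sequences longer than RefSeq made up 56.0%, 68.2% and 48.3% of miR-146b in DN3 control, Drosha and Dicer. In Treg they made up 38.9%, 33.0% and 46.0%, but of values of only 36 to 124. For miR-146a in Treg the longer forms made up 11.3%, 15.9% and 16.2%, and a form 1 base shorter 37.6%, 24.6% and 27.6%. The 2 miR-146 guides, alike in their seed, therefore had different 3′ ends in the libraries where each was abundant. miR-155 was longer than RefSeq for 27.0%, 28.0% and 23.8% of its value in DN3 and for 16.4%, 23.9% and 22.2% in Treg. The authors filed its 26-nt form, which begins at the mature 5′ end, as precursor; it stood at 10 to 40 in the 6 libraries.

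Mean guide lengths of members with abundant sequences differed by at most 0.29 nt between a deletion library and its control. In DN3 they were longer in Drosha, by 0.29 nt for miR-146b (place 17 of 125) and 0.22 nt for miR-155 (place 30), against a median of 0.10 nt, and shorter in Dicer, at -0.15 and -0.13 nt against a median of -0.08 nt over 139. miR-155 in Treg was longer by 0.15 nt in Drosha and 0.11 nt in Dicer. miR-146a in Treg was 21.77 nt in control, 21.97 in Drosha and 21.94 in Dicer. The Drosha difference of 0.20 nt compares with a median of 0.06 nt over 116 miRNAs, and it was at place 26 from the longest increase. The Dicer difference of 0.17 nt compares with a median of 0.09 nt over 121. There is no replicate, so none of these differences has a test.

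**Figure D4:**
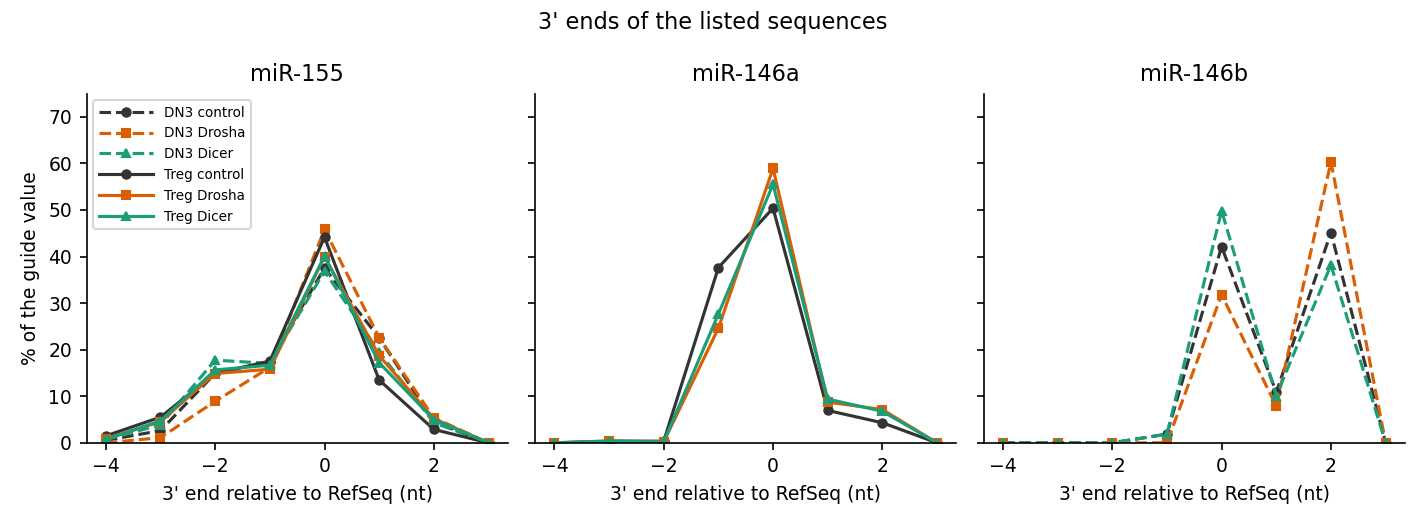
Share of the guide value (vertical axis, %) by position of the 3′ end relative to RefSeq (horizontal axis, nt) for each member, 1 line per library, with DN3 dashed and Treg solid, shown where the member's value is at least 500. miR-146b in DN3 has a second peak at 2 nt beyond RefSeq (38.2% to 60.3%), and miR-146a in Treg has its second-highest share 1 nt before RefSeq (24.6% to 37.6%).

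The genotype comparisons ask whether the members depend on Drosha and Dicer, through which canonical miRNAs are made. None of the 3 members was lost in a deletion library. Values are relative to all listed miRNAs, so a fall shared by all miRNAs would not show in them. Within 1 cell type a ratio of 2 libraries was read relative to the median miRNA, and a member was counted as apart when it stood at least 1 log2 unit from it; with 1 library on each side this is a description. Read relative to the library total instead, 5 of the 34 member ratios were no longer apart (miR-146b in Drosha against control of DN3 and MEF and in Dicer against Drosha of DN3, and miR-155 in Dicer against control and Dicer against Drosha of MEF). All 3 members were newly apart in Drosha against control of CD4, and miR-146b in Dicer against Drosha of CD4 changed sign, from -0.87 to 0.06.

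In Treg all 3 members were higher in both deletion libraries than in control. How many of all miRNAs were higher in both was not counted. miR-146a was 1.80-fold higher in Drosha and 1.76-fold in Dicer, miR-155 was 1.32-fold and 1.40-fold higher, and miR-146b was 2.67-fold and 3.41-fold higher. Relative to the median miRNA this was 0.98 and 0.94 log2 units for miR-146a and 0.53 and 0.61 for miR-155, both short of 1. In Drosha miR-146a was at place 37 and miR-155 at place 62 of 171, and in Dicer they were at places 21 and 35 of 166. miR-146b alone stood apart, by 1.55 in Drosha and 1.89 in Dicer, where 32.2% and 15.1% of all miRNAs stood apart. Its Dicer ratio was at place 5 of 166. The miR-146b control value of 36 lies near the floor: it is made of 2 sequences, at 22 and 14, and none below 10 is listed. A 23-nt form at 19 in Dicer was not listed in control or Drosha. Sequences under the floor add nothing to a value, and their effect on these ratios was not tested. Drosha and Dicer differed little from each other for the members (miR-146a -0.02, miR-155 0.10, miR-146b 0.36), and 15.6% of all miRNAs stood apart there. Markers of other cells also differed between these libraries. Control, Drosha and Dicer held 24, 588 and 746 of the myeloid miR-223, 34, 181 and 51 of the endothelial miR-126-3p, and 1198, 8533 and 991 of the summed erythroid miRNAs; 1, 3 and 1 of the 7 fibroblast miRNAs were listed, with sums of 10, 80 and 11. Their part in these differences was not tested.

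In DN3 miR-155 was 4032 in control, 2883 in Drosha and 2287 in Dicer. Relative to the median miRNA it stood at -0.10 in Drosha and -0.84 in Dicer. miR-146b was 1.88-fold higher in Drosha than in control, 1.29 log2 units above the median miRNA and place 11 of 168, where 38.7% stood apart. In Dicer it was 1.11-fold higher (0.12 relative to the median, 7.65% apart), and Dicer against Drosha was -1.19, where 41.2% stood apart. miR-146a was listed at 33 and 63 in the deletion libraries and not at all in control, so no ratio is given.

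The CD4 deletion libraries differed from CD4 control in composition. miR-689, named after its values were seen, was listed at 30690, 344342 and 269194 in control, Drosha and Dicer. The values of miR-1937a, also named after they were seen, were 6740, 36974 and 57258. miR-320 and miR-484, named in the same way, were at 28580, 141711 and 4194, and at 3670, 87105 and 1613. At a fixed total, larger shares of some listed names leave less for the rest. Whether the values under miR-689 and miR-1937a come from miRNAs was not examined. A factor common to all the rest would cancel in ratios relative to the median miRNA but not in ratios of values or reads. How far this enters the members' ratios was not tested. The median rests only on miRNAs listed in both libraries, and the deletion libraries have floors of 526 and 645. In CD4 cells 66.2% of all miRNAs stood apart in Drosha against control and 71.3% in Dicer against control, and these deletion libraries rest on only 7600 and 6100 to 6200 implied reads. In Drosha all 3 members had lower values than in control, with read ratios of 0.401 for miR-155 (0.212 to 0.694), 0.398 for miR-146a (0.287 to 0.539) and 0.223 for miR-146b (0.0813 to 0.490). The median miRNA was itself at -1.20 log2 units, and relative to it miR-155 and miR-146a stood at -0.11 and -0.12 and miR-146b at -0.96. In Dicer the members went separate ways. miR-155 was higher (read ratio 2.31, 1.73 to 3.03), miR-146a was higher (1.63, 1.36 to 1.93) and miR-146b was lower (0.232, 0.0747 to 0.546). The median miRNA was at -0.07 log2 units here, and relative to it the members stood at 1.28, 0.77 and -2.04. Dicer against Drosha was 1.60 for miR-155, place 2 of 71, 1.11 for miR-146a and -0.87 for miR-146b, where 29.6% stood apart.

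In MEF miR-146a was the member that differed most. It was 1395 in Drosha against 175 in control, a ratio of 7.95 (interval from reads 5.64 to 11.5, about 108 and 48 reads), and 126 in Dicer. Relative to the median miRNA the Drosha library stood 3.94 log2 units higher, place 9 of 227, where 36.6% stood apart, and Dicer against Drosha was -4.11, place 216 of 221, where 38.9% stood apart. Dicer against control was -0.28. The median miRNA itself was at -0.95 log2 units in Drosha against control, -0.19 in Dicer against control and 0.65 in Dicer against Drosha. Relative to it, miR-155 stood at 2.18 in Drosha and 1.02 in Dicer against control, and miR-146b at 1.30 and -0.73. In Dicer against control 4.26% of all miRNAs stood apart. The read ratios of miR-155 rest on 6 to 16 reads and their intervals include 1 (0.694 to 7.46 in Drosha, 0.754 to 4.65 in Dicer). Those of miR-146b also include 1 (0.526 to 2.83 and 0.249 to 1.08). These intervals were not taken relative to the median miRNA, whose own ratio was below 1 in each comparison with control. Of the T cell miRNAs, miR-142-3p was at 153 in MEF control and 65 in MEF Drosha, and miR-142-5p at 25 and 26. miR-181a was at 7844 and 6253, and miR-150 was not listed in either. A part of other cells in the miR-146a difference was not tested. The MEF Drosha library also differed from MEF control in composition. In control, Drosha and Dicer miR-320 was at 11782, 193941 and 10900, and miR-484 at 1105, 2700 and 759. The values of miR-1937a were 865, 8630 and 989, and those of miR-689 were 84, 6240 and 67. How far this enters the members' ratios in MEF was not tested.

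**Figure D5:**
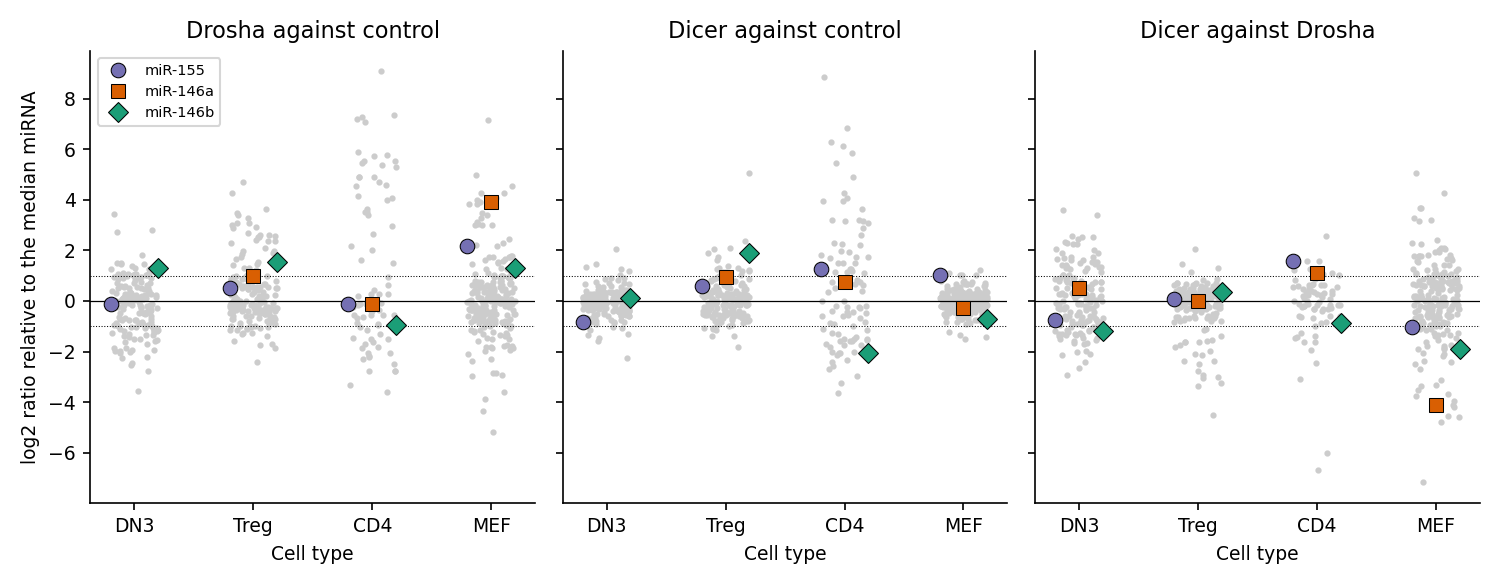
log2 ratio of 2 libraries of 1 cell type relative to the median miRNA (vertical axis) for Drosha against control, Dicer against control and Dicer against Drosha, by cell type, with all miRNAs compared as grey points and members as coloured symbols; dotted lines mark 1 log2 unit from the median. miR-146a lies at 3.94 and -4.11 in the MEF comparisons that involve the Drosha library and between -0.28 and 1.11 in all other comparisons drawn.

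Across cell types no member passed a test between genotypes. The model took cell type as its block, in limma on the same log2 scale, and fitted 185 miRNAs; miR-155 and miR-146b entered with 4 cell types and miR-146a with 3, without DN3. For Drosha against control, limma called 0% of the 185 at an adjusted p of 0.05, with 37 at an unadjusted p under 0.05. miR-146a was at 0.83 ± 0.96 (SE, limma adjusted p = 0.61), miR-146b at 0.12 ± 0.62 (limma adjusted p = 0.90) and miR-155 at -0.05 ± 0.53 (limma adjusted p = 0.95). The median miRNA was at -0.52. For Dicer against control limma called 0% again, with 4 at an unadjusted p under 0.05, and the members lay at 0.35 ± 0.96 (miR-146a), -0.28 ± 0.62 (miR-146b) and 0.42 ± 0.53 (miR-155), each at a limma adjusted p of 0.99. For Dicer against Drosha 0.541% were called, 1 miRNA that is no member, and the members lay at -0.49 ± 0.96, -0.40 ± 0.62 and 0.47 ± 0.53 in the same order (limma adjusted p = 0.83, 0.79 and 0.73). The miR-146a value for Drosha against control turned negative without MEF, to -0.24. With median-of-ratios scaling Drosha against control was at 1.66 (miR-146a), 0.77 (miR-146b) and 0.60 (miR-155), with limma adjusted p of 0.302, 0.39 and 0.495. Dicer against control was then at 0.95, 0.17 and 0.87, each at a limma adjusted p of 0.971; the median miRNA was at -0.11 and 0.22 in these fits.

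The miRNAs most like each member across libraries differed for the 3. These Pearson correlations of log2(value + 1) are descriptions over libraries of 4 cell types, both file formats and unequal depth. Such differences between groups of libraries enter them. miR-155 was most like miR-142-3p (r = 0.95), miR-191 (0.94) and miR-425 (0.87) over 12 libraries among 50 miRNAs. miR-146a was most like miR-342-3p (0.90), followed at a distance by miR-142-3p (0.58) and miR-361 (0.57), over 11 libraries among 52, and miR-155 came at place 4 (0.57). miR-146b was most like miR-130b (0.91), miR-17* (0.88) and miR-93 (0.80) over 12 libraries. Between miR-146a and miR-146b r was 0.0015, place 26 of 52.

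A list of other miRNAs linked to NF-kB or T cell activation gave a mixed picture between Treg and DN3. Whether each of them, miR-29b included, is induced by either was not examined here. Of 14 in the list 13 were listed somewhere and 7 were fitted; 3 were higher in Treg (miR-21, miR-29b, miR-182) and 2 lower (miR-31, miR-221), beside 12.2% higher and 26.7% lower of all 180. miR-21, an abundant activation-induced miRNA, was higher by 2.01 ± 0.33 (limma adjusted p = 0.0065), miR-29b by 1.56 ± 0.43 (limma adjusted p = 0.038), and miR-31 was lower, at -2.18 ± 0.53 (limma adjusted p = 0.023). The list's median was 0.01 against -0.63 for all miRNAs. Of 10 miRNAs tied to Treg cells 9 were fitted, 4 were higher (miR-10a, miR-22, miR-21, miR-142-5p) and 0 lower, beside the same 12.2% and 26.7%, with a median of 1.80. This list also holds miR-223, the myeloid marker above, which was at 2.53 and did not pass (limma adjusted p = 0.087). miR-142-5p was at 1.80 ± 0.44 (limma adjusted p = 0.024) and miR-142-3p at 1.09 ± 0.44, which did not pass (limma adjusted p = 0.098). In the 3 genotype contrasts 9 of each list were fitted and 0 passed limma, beside 0, 0 and 1 of all 185.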

How the data were processed

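Small RNAs of 19 to 30 nt that carry a 5′ phosphate and 3′ hydroxyl were ligated and sequenced, per the labels' protocols. The deposited values are scores: mapping counts that the authors normalised to similar totals per library, in whole numbers, per the file headers (the DN3 Dicer header gives only a mapping count, with a total like the others). Aligner, miRBase release and build are not given in the sources used here, nor is the treatment of reads that match several miRNAs. Values were summed per miRNA name with arm and star kept apart. A count model was not used, because the values are normalised. limma 3.58.1 (R 4.3.3) was fitted on log2(value + 1), with cell type (genotype contrasts) or genotype (Treg against DN3) as block. A set of libraries entered where each listed the miRNA at 10 or more, with at least 2 sets, and p-values were adjusted by Benjamini-Hochberg over all miRNAs fitted; the script was checked on simulated data. Each combination has 1 library, so p-values measure the spread between cell types or genotypes. Ratios within a cell type used a pseudocount of 0.5 and a summed value of at least 50. Implied reads come from value steps, counted as whole within 0.6 of a unit of value. Python 3.11.15, pandas 2.3.3, scipy 1.17.1 and matplotlib 3.10.9 were used. Named miRNAs are the 3 members, their 3 most similar miRNAs and the 3 of each list most abundant in Treg control; miR-182, miR-221, miR-10a and miR-22 are named because they passed the test. Members and lists were chosen with earlier results of these data known. Alternatives tried were other pseudocounts, filters, scalings, guide entries alone and leaving out a cell type or genotype. The file of DN3 control reads in genes was not used.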

Additional observations from a re-analysis of the deposited data

Results flagged for a closer look

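For 3 comparisons a member stood apart from the median miRNA, by 1 log2 unit or more, in opposite directions in a pair of cell types. Each rests on 1 library per side, and none of the differences between cell types was tested. miR-146b in Dicer against control was at 1.89 in Treg (values 124 and 36) and -2.04 in CD4 (820 and 3540, the first from about 5 reads), where 15.1% and 71.3% of all miRNAs stood apart. The Treg control value of 36 comes from 2 sequences near the floor of 10. miR-155 in Dicer against Drosha was at 1.60 in CD4 (9836 and 1711, about 60 and 13 reads) and -1.05 in MEF (59 and 78, about 16 and 6 reads). In these comparisons 29.6% and 38.9% of all miRNAs stood apart. The MEF read ratio has an interval of 0.284 to 2.39, which includes 1 but was not taken relative to the median miRNA, at 0.65 log2 units there. Relative to the library total the MEF value was -0.40. miR-146a in Dicer against Drosha was at 1.11 in CD4 (23115 and 5658, about 141 and 43 reads) and -4.11 in MEF (126 and 1395, about 34 and 108 reads), in the same comparisons.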

How the results depend on the processing

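Of 121 alternative values for members in the fits across libraries, 107 kept their direction and side of the threshold, 10 changed sign, 3 no longer passed and 1 newly passed; the 10 sign changes were all in genotype contrasts that no setting called. Of the 34 within-cell member ratios, 5 were no longer apart, 3 were newly apart and 1 changed sign relative to the library total. With median-of-ratios scaling Drosha against control was at 0.60 for miR-155, 1.66 for miR-146a and 0.77 for miR-146b, Dicer against control at 0.17 for miR-146b and 0.87 for miR-155, and miR-155 at 1.70 in Treg against DN3 (limma adjusted p = 0.021). Leaving out 1 cell type at a time, Drosha against control ranged from -0.24 to 1.92 for miR-146a, -0.30 to 0.89 for miR-146b and -0.47 to 0.38 for miR-155; Dicer against control from -0.96 to 0.33 for miR-146b; and Dicer against Drosha from -1.74 to 1.001 for miR-146a and -0.21 to 0.76 for miR-155. The count for Drosha against control was 7 (3 higher, 4 lower, no member) when only the 51 miRNAs listed in all 12 libraries were fitted; that for Dicer against Drosha was 3 with that filter, 0 with floors for missing values, and 0 (without CD4 or without MEF) to 2 (without Treg) with a cell type left out. In Treg against DN3 the count ranged from 20 (without Dicer) to 85 with a genotype left out (45 without control), and with floors for missing values as well, an alternative chosen after seeing the data, from 0 (without Dicer; 17 without control) to 70. There miR-146a was at 9.92 (limma adjusted p = 0.10) and miR-146b at -3.60 (0.10) without Dicer, and miR-146b at -2.80 (0.057) without control; with listed values alone miR-146b ranged from -3.60 to -2.80 and passed each time. Fewer libraries enter each of these fits; other causes were not tested. Ranked within its library, miR-146a in Treg control stood above 3 other controls in place of 2, and miR-146b above 1 in place of 0. With sequences of at least 50 alone, only the 22-nt form of miR-146b was left in Treg Drosha and Dicer (65 and 67). Its 0% of longer forms there follows from the filter, which left 1 sequence in each. Few implied reads limit the values in CD4 Drosha and Dicer and the low values in MEF. Cell type or genotype was already the block of each fit; a pairing by replicate number could not be added, as the labels carry none.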
